A study of Mus musculus with 36 samples.

Results

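The clustered protocadherins are cell-surface adhesion proteins of the cadherin superfamily that are encoded in 3 neighbouring gene arrays, Pcdha, Pcdhb and Pcdhg, on mouse chromosome 18. Their levels were followed in mouse primary cortical neurons (CNs) after stimulation with brain-derived neurotrophic factor (BDNF) or depolarization with KCl. The members were all genes of the RNA table whose symbol begins with Pcdha, Pcdhb or Pcdhg and whose value was above 0 in any library. They numbered 24 of the 26709 genes in the table, and comprised 1 Pcdha gene, 22 Pcdhb genes and 1 Pcdhg gene. The rule uses names and detection only.

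Each Pcdha and Pcdhg transcript joins 1 variable exon, which carries its own promoter, to constant exons shared by the whole array, whereas each Pcdhb gene is a single exon without a constant part. Individual neurons choose a small set of these promoters, and the chosen proteins bind only matching partners on other membranes, which gives a neuron an identity used in the self-avoidance of its branches. Promoter choice is known to depend on DNA methylation and on looping by CTCF and cohesin between promoters and distant enhancers, while the C-type genes at the ends of Pcdha and Pcdhg are expressed more uniformly. In cortex the Pcdhg genes are known for dendrite arborization and for the survival of interneurons.

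Cortices of CD-1 mouse embryos at embryonic day 15 were dissociated, with the tissue of all embryos combined, and cultured for 7 days. All cultures, controls included, were silenced with AP-5 at 100 µM, which blocks NMDA receptors, together with TTX at 1 µM, which blocks voltage-gated sodium channels. After 2 h of silencing, cultures received 10 ng/ml BDNF or 55 mM KCl for 1, 6 or 10 h, and the control cultures stayed silenced for 3, 8 or 12 h in all. Each of the 9 groups had 2 RNA-seq and 2 ATAC-seq libraries, the latter measuring the accessibility of chromatin to a transposase. The study calls these biological replicates without saying whether they came from separate dissections, so the p-values measure the spread between these libraries.

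RNA libraries held 8508452 to 36699187 reads in genes and ATAC libraries 1241829 to 6236439 reads in peaks. Values are normalised read counts, that is, reads divided by a factor for the depth of each library. Stimulated groups were compared with the 6 controls of all times together using limma on log2(value + 1) over the 16209 genes with a mean of at least 10, and a gene was called at a Benjamini-Hochberg adjusted p below 0.1. Fold changes are on that log2 scale and ± denotes the SD for levels and the SE for fold changes. Between the controls of 6 h or 10 h and those of 1 h no member passed the test, nor did any gene of the table (0 called, 0% of all genes in either comparison). At an unadjusted p below 0.05 the counts were 164 and 181 of 16209 genes and 1 and 0 members, and edgeR and DESeq2 also called 0 genes.

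The 3 arrays were not equally resolved by the table. GENCODE M21 lists 14 Pcdha, 22 Pcdhb and 22 Pcdhg genes, and 34 of these 58 genes carry identifiers with a number above 99330, the highest in the table. The only Pcdha row, ENSMUSG00000007440, is named Pcdha10 in the deposited table and Pcdha11 in M21, and the only Pcdhg row is Pcdhgc4 (ENSMUSG00000023036). Of the 75-base stretches in the M21 exons, 57.7% for the Pcdha10 row and 41.4% for the Pcdhgc4 row also occur in other clustered genes, because of the constant exons. These rows may therefore hold reads of their whole array. The study names the GENCODE release used for mapping, but does not state the gene model behind the gene counts. The Pcdhb genes share at most 4.05% of such stretches, except Pcdhb21 and Pcdhb22, which overlap each other and share 8.96% and 6.06%, so their values are uncertain.

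In the 6 controls the members together took 0.185% of all reads. The summed normalised counts were 5400 ± 327 for the Pcdha row, 4475 ± 322 for the 22 Pcdhb genes and 12280 ± 355 for the Pcdhg row, which corresponded to 24.4%, 20.2% and 55.5% of the reads of all members. These are shares of reads and not of transcripts, as the rows differ in length. The 3 arrays did not follow each other after stimulation. In normalised counts, the Pcdhg row rose at 1 h of KCl and the Pcdhb sum did not. At 6 h and 10 h of KCl the Pcdhb sum was above all controls by the same measure, and the Pcdhg row had returned to their level.

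Pcdhb sums ranged from 4059 to 4955 in the controls, with a median of 4371. The KCl libraries held 4328 and 4270 (1 h), 5719 and 4999 (6 h), and 6190 and 6050 (10 h), or 0.961, 1.20 and 1.37 times the control mean. After BDNF they were 3972 and 4279 after 1 h, 3928 and 3975 after 6 h, and 4428 and 4028 after 10 h, or 0.922, 0.883 and 0.945 times the control mean. Thus both KCl libraries of 6 h and of 10 h lay above all 6 controls, and both BDNF libraries of 6 h lay below them. The second KCl library of 6 h was close to the highest control. As a share of all reads, the Pcdhb sum at 6 h of KCl (0.0374% and 0.0438%) overlapped the controls (0.0347% to 0.0410%). By that share 10 h of KCl (0.0480% and 0.0485%) was above all controls, and 1 h of KCl (0.0332% and 0.0335%) and of BDNF (0.0307% and 0.0329%) were below them. Without Pcdhb17, the member with the highest count, the KCl sums were 1.18 and 1.35 times the controls at 6 h and 10 h, with 1 of 2 libraries above all controls at 6 h. As a share of the reads of all members, Pcdhb was 20.2% in controls, 16.1% at 1 h and 25.3% at 10 h of KCl. At 1 h the Pcdhb sum in normalised counts was within the controls, and the Pcdhg row was 1.33 times its control mean.

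**Figure D1:**
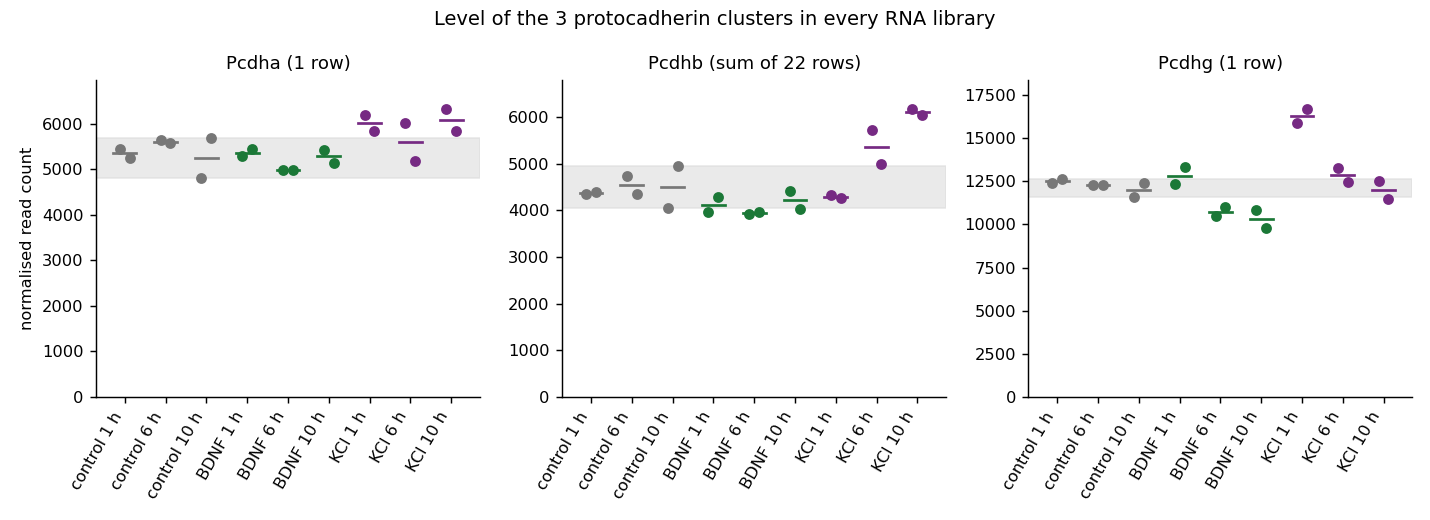
Normalised read count of the Pcdha row, of the sum of the 22 Pcdhb rows and of the Pcdhg row in each of the 18 RNA libraries. Points are libraries, short lines are group means (n = 2) and the grey band spans the 6 controls; the Pcdhb sum stands above the band at 6 h and 10 h of KCl, the Pcdhg row at 1 h of KCl.

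For the Pcdhb genes, each a single exon, counts were divided by the M21 exon length, which ran from 2588 to 8695 bases. The order below depends on these lengths, and whether reads covered each exon evenly was not tested. Pcdhb20 was highest in the controls at 124 ± 7.40 normalised counts per kb, followed by Pcdhb7 at 108 ± 11.4, Pcdhb17 at 103 ± 8.64 and Pcdhb9 at 96.5 ± 6.37. These 4 genes stood apart from the others, and among them only the gap below Pcdhb20 exceeded the SD of its pair. The next gene, Pcdhb18, was 37.5 counts per kb lower than Pcdhb9, at 59.0 ± 7.79, and it was followed by a run of genes (Pcdhb3, Pcdhb11, Pcdhb16, Pcdhb19 and Pcdhb5, down to 51.1 ± 4.77) whose neighbours differed by less than their SD. Pcdhb10 at 43.3 ± 3.18 was distinct from its neighbours on both sides. The lower part of the order ran from Pcdhb8 at 37.1 ± 6.30 through Pcdhb22, Pcdhb12, Pcdhb21, Pcdhb15, Pcdhb2, Pcdhb4 and Pcdhb6 to Pcdhb13 at 21.3 ± 2.81. Within it, 1 gap between neighbours exceeded their SD, between Pcdhb2 and Pcdhb4. Pcdhb14 was the lowest of the 21 genes tested at 15.6 ± 1.53, and the range from Pcdhb20 to Pcdhb14 was 7.92-fold. Pcdhb14 has the longest exon, at 8695 bases, and its count per gene (136) was above that of Pcdhb13 (79.0).

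Pcdhb1, the first gene of the array, was at 1.67 ± 0.92 counts per kb in the controls and held 1 to 8 reads in a library. With a mean of 4.58 over all libraries it was the only member below the filter and was not tested, which left 23 members in the tests. Its highest values were 8.56 and 8.71 at 10 h of KCl, against 1.20 to 6.85 in the controls, and differences of this size were not resolvable at these counts. By total count per gene Pcdhb17 led, with 10.7% of the Pcdhb sum in the controls. The level per kb had no clear relation to the place in the array (Spearman's rho 0.17 and Pearson's r 0.17 over 21 genes, which share their libraries).

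**Figure D2:**
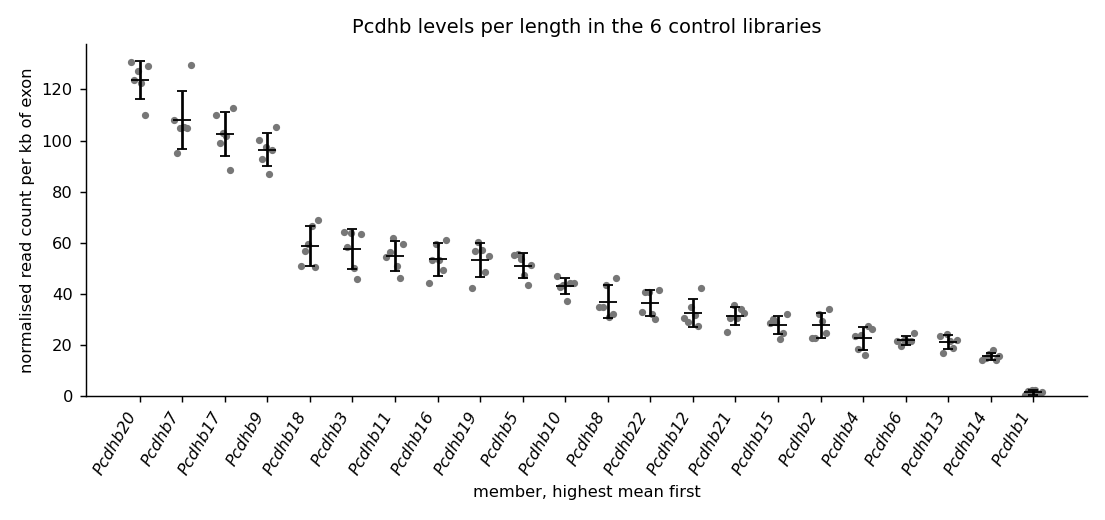
Normalised read count per kb of exon for the 22 Pcdhb genes in the 6 control libraries, ordered by mean. Points are libraries and bars are mean ± SD; Pcdhb20, Pcdhb7, Pcdhb17 and Pcdhb9 lie near or above 96.5, and all other members lie at 59.0 or below.

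KCl for 10 h gave the broadest change of the array. Of the 21 tested Pcdhb genes 18 rose and 0 fell, where 29.0% of all genes tested rose and 28.2% fell. All 21 fold changes were above 0, from 0.08 for Pcdhb21 to 0.79 for Pcdhb10, with a median of 0.46 against 0.01 over all genes. In 16 of the 21, both KCl libraries lay above all 6 controls, as they did in 28.4% of all genes. The 3 genes that did not pass the test were Pcdhb8, Pcdhb18 and Pcdhb21, with fold changes of 0.14 ± 0.19, 0.10 ± 0.11 and 0.08 ± 0.13. With any single library left out, the number of calls among the 23 members was between 14 and 19, where the full data gave 19.

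At 6 h of KCl, 11 of the 21 Pcdhb genes rose and 1 fell, where 33.4% of all genes rose and 33.1% fell, so the count of genes that rose was above the background and that of genes that fell was below it. The median fold change was 0.30, and 10 genes had both libraries above all controls (30.2% of all genes). The gene that fell was Pcdhb8, at 113 and 75.2 against controls of 108 to 161, a fold change of −0.47 ± 0.19 (adjusted p = 0.0382) with overlapping ranges. The 2 libraries of this group differed more than those of any other group. Without the first of them the median fold change was 0.17 in place of 0.30, so the size of the rise rested in part on that library.

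Pcdhb10 had the highest fold change of the array at both times. Its controls ranged from 107 to 134, with a median of 125. The KCl libraries held 162 and 120 after 1 h, 257 and 203 after 6 h, and 214 and 212 after 10 h. The 6 h and 10 h libraries all lay above the controls, with fold changes of 0.88 ± 0.13 (adjusted p = 3.25e-06) and 0.79 ± 0.13 (adjusted p = 2.40e-05).

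Pcdhb16 and Pcdhb3 followed at 10 h. Pcdhb16 ranged from 231 to 320 in the controls (median 279), was at 273 and 254 after 1 h of KCl, 392 and 358 after 6 h, and 462 and 463 after 10 h. It rose by 0.43 ± 0.11 at 6 h (adjusted p = 0.00203) and 0.73 ± 0.11 at 10 h (adjusted p = 1.17e-05). Pcdhb3 ranged from 174 to 244 in the controls (median 231), and its KCl libraries were at 225 and 237, then 311 and 281, then 361 and 351. Its fold changes were 0.45 ± 0.11 (adjusted p = 0.00193) at 6 h and 0.71 ± 0.11 (adjusted p = 2.50e-05) at 10 h, and no library of these times overlapped the controls in either gene.

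Pcdhb17 showed the same course at a higher count. From 412 to 526 in the controls (median 478), it was at 466 and 447 after 1 h of KCl, 698 and 590 after 6 h, and 711 and 700 after 10 h. All 4 late libraries lay above the controls, with fold changes of 0.43 ± 0.09 (adjusted p = 0.000207) and 0.57 ± 0.09 (adjusted p = 1.44e-05). Pcdhb6 reached 100 and 130 at 10 h against controls of 73.5 to 93.7 (median 81.7), a rise of 0.47 ± 0.15 (adjusted p = 0.0108). That call rested on the second library, as without it the fold change was 0.28 (adjusted p = 0.250). Among the remaining members Pcdhb14 rose by 0.64 ± 0.11, Pcdhb15 by 0.60 ± 0.17, Pcdhb4 by 0.59 ± 0.18 and Pcdhb12 by 0.56 ± 0.16 at 10 h. Over the 21 genes the fold change at 10 h had little relation to the control level per kb (Spearman's rho −0.19, Pearson's r −0.14).

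**Figure D3:**
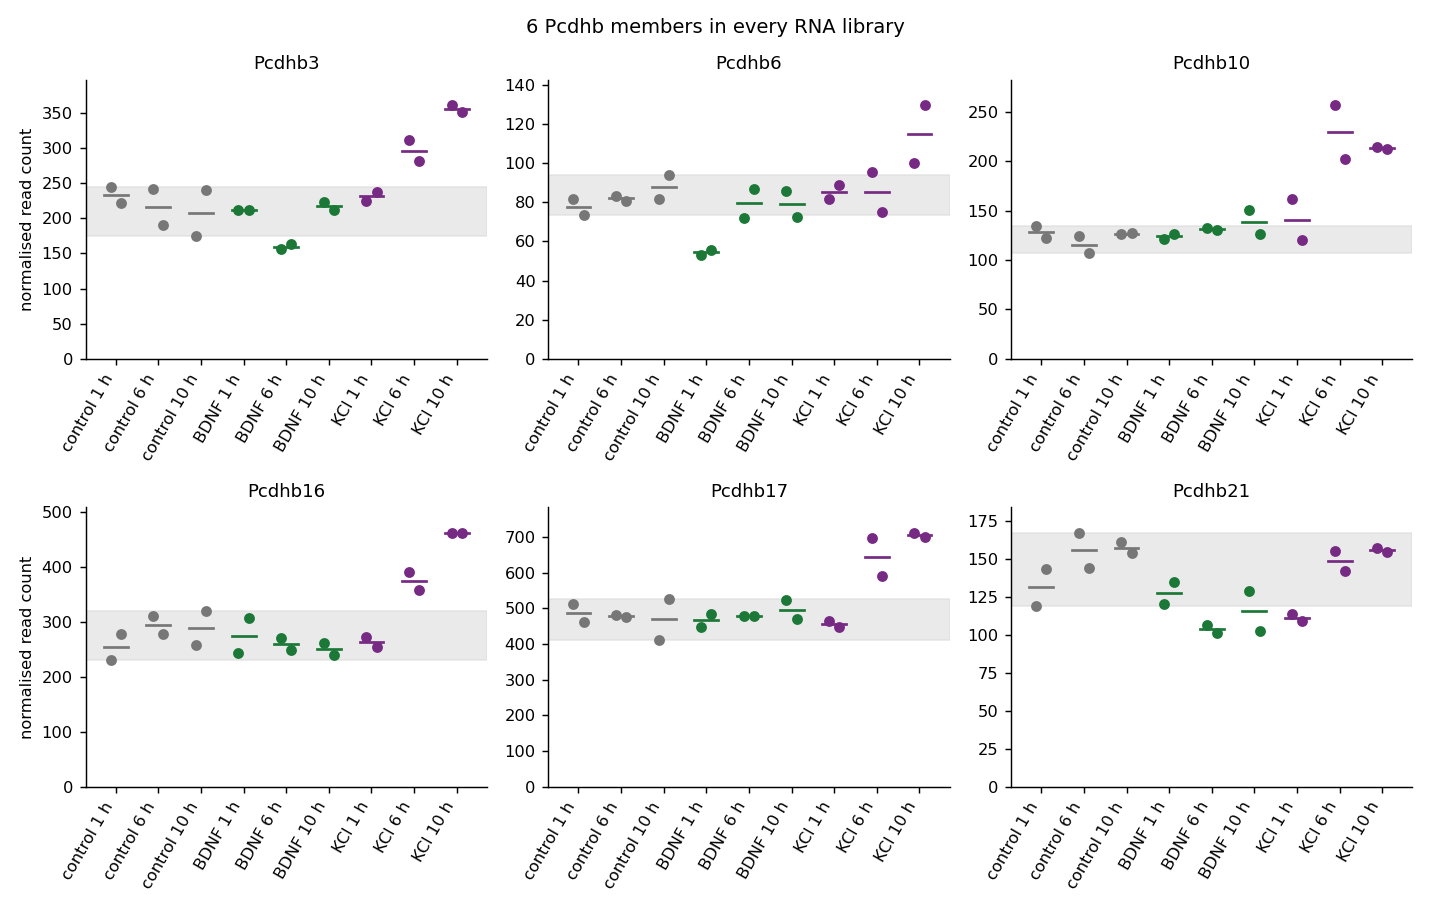
Normalised read count of Pcdhb3, Pcdhb6, Pcdhb10, Pcdhb16, Pcdhb17 and Pcdhb21 in each of the 18 RNA libraries, with group means as lines and the span of the 6 controls as a grey band. Pcdhb10 reached 257 and 203 at 6 h of KCl, Pcdhb6 was below the band at 1 h of BDNF and Pcdhb21 was below it at 6 h of BDNF and 1 h of KCl.

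At 1 h of KCl few Pcdhb genes were called. Of the 21 tested 1 rose and 3 fell, both below the shares of all genes (26.5% and 28.2%), and the median was −0.04. Pcdhb9 rose, at 332 and 366 against controls of 265 to 322, by 0.24 ± 0.08 (adjusted p = 0.0214). The genes that fell were Pcdhb18 (−0.34 ± 0.11, adjusted p = 0.0158), Pcdhb21 (−0.40 ± 0.13, adjusted p = 0.0118) and Pcdhb22 (−0.28 ± 0.13, adjusted p = 0.0746). All 3 lie among the last 5 genes of the array. Over the 23 members 6 were called, 3 without the first KCl library and 2 against the controls of 1 h alone.

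The order of the genes along the chromosome went with the response at 1 h of KCl. Over the 21 tested genes the fold change at that time declined with place in the array (Spearman's rho −0.72, Pearson's r −0.69), while in the other 5 comparisons with controls rho lay between −0.34 and 0.01. Genes are not independent here, as they share libraries and neighbours, and no test was made. For the 9 genes from Pcdhb2 to Pcdhb10 the median was 0.09, for the 7 from Pcdhb11 to Pcdhb17 it was −0.08, and for the 5 from Pcdhb18 to Pcdhb22 it was −0.28. These stretches were drawn after the values had been seen. The last 5 genes were also all called lower at 6 h of BDNF, from −0.21 to −0.50. At 10 h of KCl the same 3 stretches had medians of 0.47, 0.57 and 0.39.

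After BDNF most fold changes of the array were below 0. At 1 h, 0 of the 21 tested Pcdhb genes rose and 1 fell, against 21.3% and 19.0% of all genes. At 6 h, 1 rose and 7 fell, against 22.1% and 21.1% of all genes, and at 10 h 0 rose and 3 fell, against 21.1% and 19.5%. The medians were −0.11, −0.21 and −0.07, with 18, 17 and 13 of the 21 fold changes below 0. At 6 h, 6 genes had both libraries below all controls, which held for 22.7% of all genes. By these calls the share of genes that fell was above the background at 6 h of BDNF. It was below the background at 1 h and near it at 10 h. The 7 genes of 6 h include Pcdhb21 and Pcdhb22, whose exons overlap. Without the first BDNF library of 6 h, 3 of the 9 calls of that time among the 23 members were made, and without the second of 10 h none of the 4 was. Against the controls of the same time alone, 5 and 2 of the 23 members were called at 6 h and 10 h. In those fits 2889 and 2328 of the 16209 genes rose, and 2525 and 1993 fell. At both times the share called was thus smaller among members than among all genes. The 4 calls of 10 h came to 2 without the first BDNF library, the second control of 1 h or the first control of 6 h, and the 1 call of 1 h came to 2 or 3 without its second BDNF library, either control of 1 h or the first control of 10 h.

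The gene that fell at 1 h was Pcdhb6. It was at 53.2 and 55.7, below all controls (73.5 to 93.7), a fold change of −0.59 ± 0.15 (adjusted p = 0.00326). At 6 h it was at 72.1 and 86.9 and at 10 h at 85.9 and 72.7, with 1 of 2 libraries within the range of the controls and 1 just below it at each time, and neither fold change passed the test. The genes that fell at 6 h were Pcdhb21, Pcdhb3, Pcdhb18, Pcdhb7, Pcdhb22, Pcdhb19 and Pcdhb20.

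Pcdhb21 changed most at that time. Its controls spanned 119 to 167 (median 149), and its BDNF libraries were at 120 and 135 after 1 h, 106 and 102 after 6 h, and 129 and 103 after 10 h. Both libraries of 6 h were below all controls (−0.50 ± 0.13, adjusted p = 0.00370). The fall of 0.35 ± 0.13 at 10 h (adjusted p = 0.0362) rested on the second library, without which it was 0.19 (log2 fold change −0.19, adjusted p = 0.454). Pcdhb3 was at 211 and 211, then 156 and 163, then 223 and 211 in the same groups. It fell by 0.44 ± 0.11 at 6 h only (adjusted p = 0.00447), with fold changes of −0.04 ± 0.11 at 1 h and 0.00 ± 0.11 at 10 h.

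Pcdhb14 was the exception at 6 h of BDNF. It was at 162 and 167 against 123 to 158 in the controls, a rise of 0.28 ± 0.11 (adjusted p = 0.0615). Pcdhb17, the member with the highest count, was at 449 and 485, 477 and 478, and 522 and 470 after BDNF, within the range of the controls at all 3 times. Pcdhb10 and Pcdhb16 also passed no test against controls after BDNF, with fold changes from 0.01 to 0.16 and from −0.15 to −0.03.

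**Figure D4:**
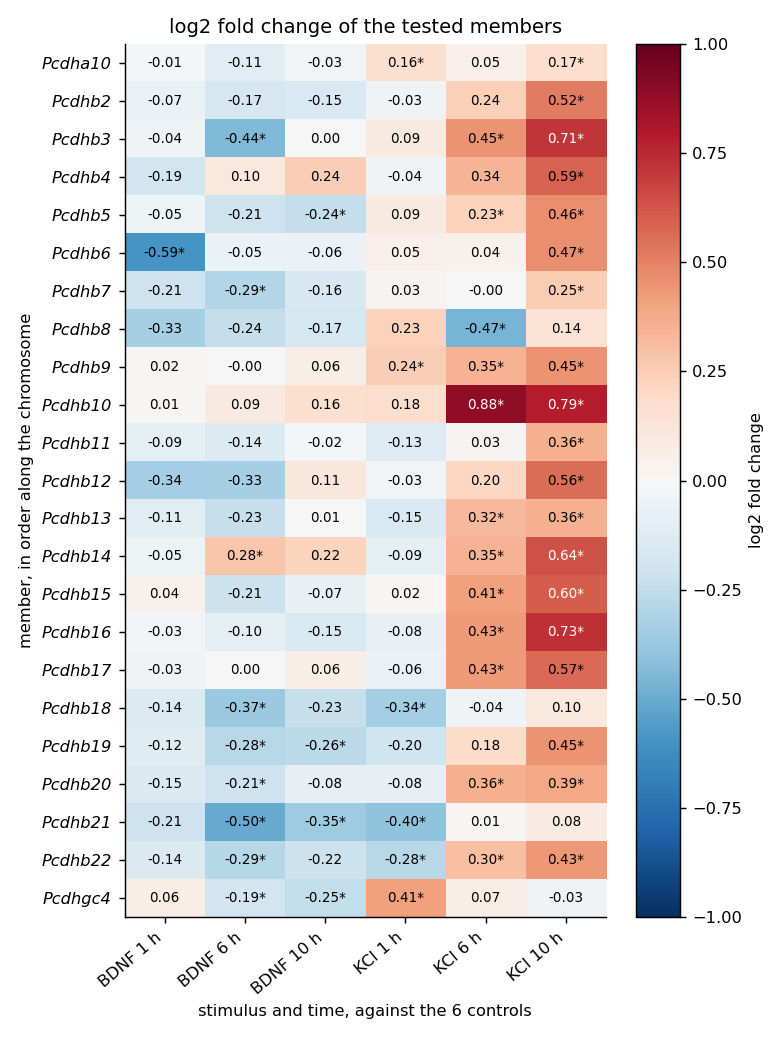
Log2 fold change against the 6 controls of the 23 tested members (rows, in order along the chromosome) for each stimulus and time (columns), from limma on log2(value + 1). Asterisks mark an adjusted p below 0.1; 18 of 21 Pcdhb genes carry one at 10 h of KCl, and the last 5 Pcdhb genes are blue at 1 h of KCl and at 6 h of BDNF.

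The stimuli were also compared directly, BDNF against KCl at each time, without the controls in the contrast. At 1 h, 3 of 21 Pcdhb genes were lower in BDNF, where 18.2% of all genes were. At 6 h 15 were lower, where 27.8% of all genes were, and at 10 h 18 were, where 21.8% were. No Pcdhb gene was higher in BDNF at any of the times. The median difference was −0.03, −0.44 and −0.47, and at 10 h it was below 0 for all 21 genes. At 10 h it ranged from −0.32 for Pcdhb8 (SE 0.23) to −0.88 for Pcdhb16 (SE 0.14, adjusted p = 2.35e-05). Pcdhb3 differed most at 6 h, by −0.89 ± 0.14 (adjusted p = 1.82e-05). Over all 23 members 4, 16 and 20 were called, and at 10 h 11 were called without the second BDNF library.

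Changes over time within each stimulus were tested in the same fit. From 1 h to 6 h of KCl, 11 Pcdhb genes rose and 1 fell, where 30.9% of all genes rose and 28.7% fell. Pcdhb10 rose by 0.71 ± 0.15 (adjusted p = 0.000586), Pcdhb22 by 0.58 ± 0.15 (adjusted p = 0.00324) and Pcdhb17 by 0.49 ± 0.11 (adjusted p = 0.000531). Pcdhb8 was the gene that fell, by 0.70 ± 0.23 (adjusted p = 0.0151). From 6 h to 10 h of KCl, Pcdhb8 rose again by 0.61 ± 0.23 (adjusted p = 0.0781), and it was the only member called, where 12.9% of all genes rose. Without the first KCl library of 10 h or the second of 6 h 0 members were called at this step, and without the first of 6 h 5 were. The fold changes of that step were above 0 for 20 of 21 Pcdhb genes, with a median of 0.25. From 1 h to 6 h of BDNF 2 Pcdhb genes rose (Pcdhb6 and Pcdhb14) and Pcdhb3 fell, where 15.8% of all genes rose and 17.7% fell, and with the Pcdhg row these were 4 calls, of which leaving out any of the 4 libraries left 1 or 2. From 6 h to 10 h of BDNF 0 members were called, where 0.216% of all genes were.

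The Pcdha row changed little. In the controls it spanned 4811 to 5691, with a median of 5505. After KCl it was at 6191 and 5840 after 1 h, 6008 and 5168 after 6 h, and 6331 and 5837 after 10 h. Both libraries of 1 h and of 10 h and 1 of the 2 of 6 h lay above all controls in normalised counts. As a share of all reads the controls spanned 0.0411% to 0.0471%. By that share the libraries of 1 h (0.0459% and 0.0475%) and 10 h (0.0463% and 0.0496%) overlapped them. It rose by 0.16 ± 0.07 at 1 h (adjusted p = 0.0578) and by 0.17 ± 0.07 at 10 h (adjusted p = 0.0362), or 1.11 and 1.13 times the controls. Neither call held without the first library of its group (adjusted p = 0.339 and 0.326), and that of 1 h was also lost without the first control of 10 h (adjusted p = 0.104). After BDNF it was at 5289 and 5435, 4983 and 4978, and 5428 and 5145, all within the controls, with fold changes from −0.11 to −0.01.

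The Pcdhg row, named for Pcdhgc4, a C-type gene known to be needed for the survival of cortical interneurons, had its highest values at 1 h of KCl. Its controls spanned 11605 to 12650 (median 12356). The KCl libraries were at 15893 and 16736 after 1 h, 13294 and 12490 after 6 h, and 12543 and 11488 after 10 h. Both libraries of 1 h were above all controls, a rise of 0.41 ± 0.06 (adjusted p = 3.77e-06), or 1.33 times the controls. At 6 h and 10 h the fold changes were 0.07 ± 0.06 and −0.03 ± 0.06 and did not pass the test, and the fall from 1 h to 6 h was −0.34 ± 0.07 (adjusted p = 0.000326). As a share of all reads, the libraries of 10 h of KCl (0.0911% and 0.0983%) lay below all controls (0.0991% to 0.106%).

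After BDNF the Pcdhg row was at 12378 and 13311 after 1 h, 10500 and 11010 after 6 h, and 10865 and 9807 after 10 h. Both late groups were below all controls. It fell by 0.19 ± 0.06 at 6 h (adjusted p = 0.0121) and by 0.25 ± 0.06 at 10 h (adjusted p = 0.00201). The call of 6 h was lost without its first library (adjusted p = 0.166) and that of 10 h without its second (adjusted p = 0.113). BDNF was lower than KCl at all 3 times, by 0.35 ± 0.07, 0.26 ± 0.07 and 0.22 ± 0.07 (adjusted p = 0.000468, 0.00362 and 0.0177), and the last of these was lost without the second BDNF library (adjusted p = 0.221) or the first KCl library of 10 h (adjusted p = 0.175). The highest KCl level was therefore at 1 h for the Pcdhg row and at the late times for the Pcdhb sum. By mean the Pcdhb sum was highest at 10 h, but between 6 h and 10 h only Pcdhb8 was called. No such order was resolved for the Pcdha row.

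The factors known to act on these promoters were taken as a list of 19 genes, with CTCF, the cohesin subunits and their loaders, DNA methyltransferases and silencing factors, all of which were tested. After BDNF 7, 2 and 1 of them rose (21.3%, 22.1% and 21.1% of all genes) and 1, 6 and 7 fell (19.0%, 21.1% and 19.5%) at 1 h, 6 h and 10 h. After KCl 4, 2 and 2 rose (26.5%, 33.4% and 29.0% of all genes) and 5, 10 and 9 fell (28.2%, 33.1% and 28.2%), with medians of 0.01, −0.13 and −0.15. Dnmt3b, a de novo DNA methyltransferase, fell by 1.26 at 1 h of KCl (adjusted p = 7.67e-05), and Rest, a repressor of neuronal genes, fell by 1.07 at 10 h of KCl (adjusted p = 2.55e-07). Pds5b, a cohesin regulator, fell by 0.69 at 6 h of KCl (adjusted p = 2.98e-08), whereas Trim28, a corepressor recruited by zinc-finger proteins, rose by 0.62 at 1 h of KCl (adjusted p = 3.93e-09).

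Cadherins of related families outside the arrays (delta protocadherins, Celsr and Fat genes) were the second list, and 17 of 19 were tested. After KCl 11, 10 and 11 rose (26.5%, 33.4% and 29.0% of all genes) and 1, 4 and 4 fell (28.2%, 33.1% and 28.2%) at the 3 times. After BDNF 2, 3 and 3 rose (21.3%, 22.1% and 21.1%) and 5, 8 and 7 fell (19.0%, 21.1% and 19.5%). Their medians were 0.25, 0.35 and 0.51 after KCl and −0.14, −0.22 and −0.19 after BDNF. Pcdh20 (1.61 at 10 h of KCl, adjusted p = 5.51e-09), Pcdh8 (1.42 at 6 h of KCl, adjusted p = 2.29e-09), Pcdh1 (1.39 at 1 h of BDNF, adjusted p = 6.54e-11) and Pcdh7 (1.36 at 10 h of KCl, adjusted p = 5.57e-06) changed most, each by more than any clustered member.

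Known partners and downstream proteins of clustered protocadherins (sheddases, the gamma-secretase complex, focal adhesion kinases, the WAVE complex and others) were a list of 25 tested genes. After BDNF 8, 7 and 8 rose (21.3%, 22.1% and 21.1% of all genes) and 4, 2 and 3 fell (19.0%, 21.1% and 19.5%). After KCl 9, 9 and 7 rose (26.5%, 33.4% and 29.0%) and 4, 8 and 8 fell (28.2%, 33.1% and 28.2%). The counts at 6 h and 10 h of KCl and the 4 that fell at 1 h of BDNF were near the shares of all genes. Ret, a receptor tyrosine kinase that binds protocadherins, fell by 1.52 at 10 h of KCl (adjusted p = 2.18e-07). Nlgn1, a synaptic adhesion protein, fell by 0.86 at 6 h of KCl (adjusted p = 3.47e-09). Axin1, a scaffold of Wnt signalling, rose by 0.83 at 1 h of KCl (adjusted p = 1.44e-08), and Ptk2b, the kinase Pyk2 that protocadherin tails inhibit, rose by 0.76 at 10 h of BDNF (adjusted p = 0.000333).

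The cultures also held other cells, and their markers moved with some of these groups. In the controls the summed counts of neuron markers were 55146 ± 2295, with excitatory markers at 7116 ± 435 and inhibitory markers at 11464 ± 670, against 11722 ± 1171 for astrocytes, 6053 ± 167 for the oligodendrocyte lineage, 5463 ± 1086 for dividing cells, 2986 ± 193 for meningeal fibroblasts, 849 ± 389 for endothelial and mural cells, 559 ± 182 for choroid plexus and 161 ± 25.3 for microglia. None of the markers was at 0 in all controls. Over the groups the neuron sum lay between 50750 and 57806. At 6 h and 10 h of KCl, when Pcdhb rose, the astrocyte sum was 8336 and 8656, below all controls (10033 to 12928), with 5 of 5 tested markers lower, and the sum for dividing cells was 3016 and 2904, against 3945 to 6629. At 6 h of BDNF, when Pcdhb fell, they were 9912 and 3629. The inhibitory sum was above the highest control (12186) in every stimulated group, with means from 13160 at 10 h of BDNF to 14590 at 6 h of KCl. The sum for the oligodendrocyte lineage was 4663, 7105 and 6960 at 1 h, 6 h and 10 h of KCl, against 5883 to 6323. Excitatory markers were at 8398 at 6 h and 6767 at 10 h of KCl, against 6649 to 7641. The part of these cell types in the results was not tested, and in such bulk libraries fewer cells of a type and less RNA per cell cannot be told apart.

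Chromatin accessibility was examined over the 912 kb from the start of Pcdha to the end of Pcdhg (mm10, chr18:36930184-37841873). Of the 58177 peaks 13 lay there, 5 within Pcdha, 5 within Pcdhg, 3 between the arrays and 0 within Pcdhb. The widest stretch without a peak, 425 kb from 37218480 to 37643931, contained the whole Pcdhb array, so the promoters of the Pcdhb genes had no accessibility value to set beside their RNA. Only 4 of the 58 clustered gene starts had a peak within 1000 bases before and 100 bases after them, and all 4 were C-type genes, Pcdhac1, Pcdhac2, Pcdhgc3 and Pcdhgc4. A peak had to be called in at least 2 libraries, and a promoter open in few cells could have stayed below that limit.

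All 13 peaks were tested with edgeR on counts scaled by a fit to the abundance of each peak. The second library of 6 h of KCl was the shallowest, at 1241829 reads in peaks against 4208446 in the first. BDNF for 1 h raised 2 of 13 (11.2% of all peaks), for 6 h changed 0 (9.40% changed either way) and for 10 h raised 1 (6.23%). KCl for 1 h raised 1 and lowered 1 (4.88% and 3.08% of all peaks), for 6 h raised 1 and lowered 1 (4.65% and 2.09%), and for 10 h changed 0 (7.08% either way). At an unadjusted p below 0.05 the counts for 6 h of BDNF and 10 h of KCl were 0 and 3.

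The firmest change was at 1 h of BDNF in the peak at chr18:37178274-37178960, within Pcdha and not near a clustered start. Its controls spanned 76.1 to 119 scaled counts (median 93.0) and its BDNF libraries of 1 h were at 150 and 160, above all controls, a log2 fold change of 0.69 (adjusted p = 0.000935). Its BDNF libraries of 6 h held 98.7 and 130, and those of 10 h held 108 and 117. The neighbouring peak at chr18:37172264-37172617 was at 53.3 and 49.1 at 1 h of BDNF, against 23.0 to 36.0, a fold change of 0.81 (adjusted p = 0.0456). That call was lost without either BDNF library (adjusted p = 0.280 and 0.187). After 1 h of KCl both peaks were below the range of the controls, at 67.1 and 71.2 and at 18.5 and 18.8, and neither passed the test.

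A further peak within Pcdha, chr18:37149033-37149660, was higher at 1 h and 6 h of KCl and at 10 h of BDNF. From 17.1 to 39.2 in the controls (median 26.9), it was at 50.3 and 45.5 after 1 h of KCl (0.78, adjusted p = 0.0791), 66.1 and 46.7 after 6 h of KCl (1.08, adjusted p = 0.0156), and 31.6 and 65.2 after 10 h of BDNF (0.84, adjusted p = 0.0886). The libraries of 10 h of BDNF overlapped the controls, and without the second of them the fold change was 0.19 (adjusted p = 0.898), while leaving out the second control of 1 h or either control of 6 h gave an adjusted p of 0.196, 0.117 or 0.128. Without the first KCl library of 6 h the adjusted p was 0.485, and none of the peaks was called at 1 h of KCl without either library of that group.

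The peak at the start of Pcdhgc4, chr18:37815012-37815622, was at 41.0 and 35.2 after 1 h of KCl against 52.9 to 77.7 in the controls, below all of them, with a fold change of −0.70 (adjusted p = 0.0782). At the same time the RNA of the Pcdhg row was above all controls. The call was lost without either KCl library (adjusted p = 0.225 and 0.460) and without a control of 1 h or of 10 h (adjusted p = 0.126 and 0.128). The peak at chr18:37643931-37644552, over the start of Taf7 between Pcdhb and Pcdhg, was at 144 and 140 after 6 h of KCl against 178 to 215 (−0.46, adjusted p = 0.0492), and that call too was lost without either KCl library (adjusted p = 0.306 and 0.187).

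**Figure D5:**
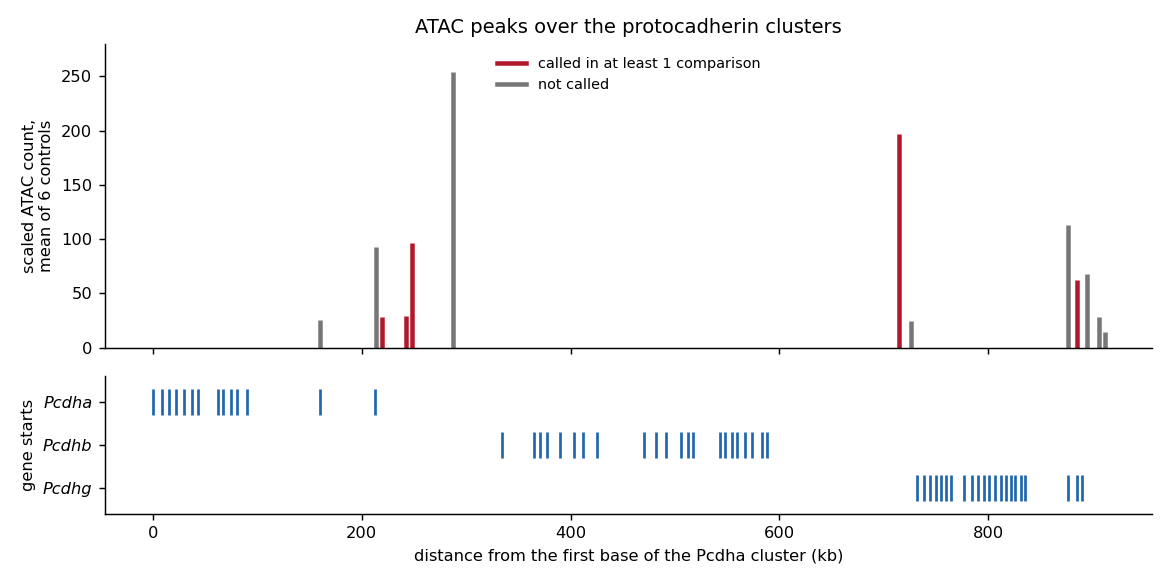
Mean scaled ATAC count of the 13 peaks over the 3 arrays in the 6 controls (upper panel) and the starts of the 58 annotated clustered genes (lower panel), against the distance in kb from the first base of Pcdha. Red bars are peaks called in at least 1 of the 6 comparisons with controls; the 425 kb without a peak cover all Pcdhb starts.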

How the data were processed

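RNA-seq and ATAC-seq were made from 9 groups of cultures with 2 libraries each. The authors aligned RNA reads with TopHat2 to mm10 and deposited counts per gene divided by DESeq2 size factors (a signal unit). The counter and the strand setting are not given in the sources used here. Dividing by the value of 1 read gave whole reads for 100% of values (tolerance 0.01), so depth and counts were recovered. ATAC reads were aligned with Bowtie2, peaks called with MACS2 per sample and counted with DiffBind, and the deposited peak table held whole counts, used as counts. Deposited columns of the authors' own fold changes and p-values were not used.

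RNA values were tested with limma 3.58.1 (trend and robust options, 7 levels with the 6 controls as 1 level, a pseudocount of 1, mean of at least 10), and control times in a fit of 9 levels. ATAC counts were tested with the edgeR 4.0.16 quasi-likelihood test with LOESS offsets (span 0.3) on 56383 of 58177 peaks. P-values were adjusted by Benjamini-Hochberg over all genes or peaks, and the threshold of 0.1 followed the study. Scripts were tested on simulated data. Alternatives were edgeR and DESeq2 1.42.0 on whole reads, TMM scaling, no filter, a pseudocount of 5, a threshold of 0.01, controls of the same time, a replicate block and each library left out. Gene names and exons came from the table and from GENCODE M21. Members named in full were the C-type genes, the highest member of each array and, per array and stimulus, up to 3 called members with the largest fold change and both libraries outside the range of the controls. Up to 4 called genes of each list and 3 called peaks per stimulus with the largest fold changes, and peaks at starts of named members, were also named. The members and lists were chosen with earlier results of these data known. First and second RNA libraries follow the column letters, which could not be tied to replicate numbers. The ATAC columns name no replicate, so first and second are labels given here. No 2 replicates held identical values or agreed within sampling noise (chi-square per degree of freedom 2.33 to 36.4, the highest at 6 h of KCl).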

Additional observations from a re-analysis of the deposited data

Results flagged for a closer look

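In the 6 controls, 1 library stood apart for 1 of the 38 values examined (members, the Pcdhb sum and peaks). The first control of 10 h was lowest for the Pcdhgc4 row, at 11605, and the gap to the next library took 0.639 of the range, above Dixon's critical value at the 95% level for 6 samples. Chance gives such a gap in about 5% of groups, that is, more often than was seen here.

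Effects of the same stimulus differed between times, by the test of the difference itself. From 1 h to 6 h of BDNF 4 members were called, among them Pcdhb3 (−0.41), Pcdhb6 (0.53) and Pcdhgc4 (−0.26), all on the log2 scale. From 1 h to 6 h of KCl 13 were called, among them Pcdhb3 (0.35), Pcdhb10 (0.71), Pcdhb16 (0.51), Pcdhb17 (0.49), Pcdhb21 (0.41) and Pcdhgc4 (−0.34). The call of Pcdhb3 was lost without the first library of 1 h or of 6 h (adjusted p = 0.143 and 0.166), and that of Pcdhb21 without the second of 1 h or the first of 6 h (adjusted p = 0.112 and 0.125). From 6 h to 10 h of KCl 1 was called, Pcdhb8, and 0 without the first library of 10 h or the second of 6 h.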

How the results depend on the processing

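The counts of called members at 6 h and 10 h of KCl and of BDNF against KCl at 6 h kept within 1.5 times their value under every scaling, filter, pseudocount and test tried. At an adjusted p below 0.01 they were 6 and 14 at 6 h and 10 h of KCl, in place of 12 and 19, and 11 for BDNF against KCl at 6 h, in place of 16. At that threshold the other RNA counts that moved were 2 at 6 h and 1 at 10 h of BDNF, 1 at 1 h of KCl, 2 and 9 for BDNF against KCl at 1 h and 10 h, 1 and 6 from 1 h to 6 h of BDNF and KCl, and 0 from 6 h to 10 h of KCl. With controls of the same time they were 5 at 6 h and 2 at 10 h of BDNF and 2 at 1 h of KCl. Over all genes 2889, 2328 and 3145 rose and 2525, 1993 and 3691 fell in those comparisons. In the main fit 3588, 3424 and 4298 rose and 3426, 3159 and 4565 fell. TMM scaling gave 3 at 1 h of BDNF, and no filter gave 0 from 6 h to 10 h of KCl.

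With 1 library left out, RNA counts against controls ranged from 1 to 3, 3 to 11 and 0 to 5 after BDNF and from 3 to 7, 8 to 14 and 14 to 19 after KCl. BDNF against KCl gave 3 at 1 h in each case, 12 to 19 and 11 to 19, BDNF over time 1 to 2 and 0, and KCl over time 9 to 16 and 0 to 5. Medians of the Pcdhb genes ranged from −0.17 to −0.04, −0.24 to −0.16 and −0.16 to −0.03 after BDNF, and from −0.077 to 0.013, 0.17 to 0.39 and 0.44 to 0.48 after KCl. The median at 1 h of KCl changed sign without the second control of 10 h (0.013). Calls over all genes also changed when a library was left out. The member counts alone therefore do not show whether members were less stable than other genes.

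Among peaks, the threshold of 0.01 left 1 at 1 h and 0 at 10 h of BDNF and 0 at 1 h and at 6 h of KCl. Controls of the same time gave 1 and 0 at 1 h and 10 h of BDNF and 0, 1 and 1 at the KCl times. DESeq2 size factors gave 2 at 10 h of BDNF and 4 and 2 at 1 h and 10 h of KCl, TMM 4 and 2 at those KCl times, and flanks of 200 kb 4 and 2. With 1 library left out the counts were 1 to 3, 0 and 0 to 2 after BDNF and 0 to 2, 0 to 2 and 0 to 1 after KCl, the last reaching 1 without either control of 1 h or the second of 10 h. The cause of these shifts was not tested. Of the values for single genes and peaks 1127 kept their side of the threshold, 56 lost it and 9 gained it. Among values called in the main or the alternative fit 0 changed direction. Values called in neither could change sign, as for Pcdhb10 at 1 h of KCl (0.18, and −0.04 to 0.39 with 1 library left out).

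Libraries with the same column letter were not shown to be paired, since over 36 pairs of groups their deviations correlated from −0.31 to 0.42 (median 0.06), with 13 above 0.1. A replicate block by letter gave 13 calls at 6 h of KCl and 14 from 1 h to 6 h of KCl, and changed no other count. Depth was lowest for Pcdhb1, with 1 to 8 reads in a library.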

Other observations

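Genes other than protocadherins lie between and beside the arrays, and 9 of 13 of them were tested. They were chosen after the annotation had been seen. After KCl 3, 5 and 5 of them rose (26.5%, 33.4% and 29.0% of all genes) and 2, 1 and 1 fell (28.2%, 33.1% and 28.2%) at 1 h, 6 h and 10 h. Taf7, which encodes a subunit of the general transcription factor TFIID and lies between Pcdhb and Pcdhg, rose by 0.60 at 1 h of BDNF and by 0.47 at 6 h of KCl. Gm10545, antisense within Pcdha, rose by 1.38 and 1.19 at 6 h and 10 h of KCl, and 3222401L13Rik fell by 1.05 at 1 h of KCl. As the strand setting of the counting is not given, reads of an antisense gene and of its partner cannot be told apart.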
